A study of Homo sapiens with 3 samples.

Results

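The genes described here handle iron and haem: the ferritin chains FTL and FTH1, the ferritin cargo receptor NCOA4, the iron importers TFRC and SLC11A2, the iron exporter SLC40A1, the haem synthesis enzymes ALAS1 and FECH, and TMEM14C, which serves haem synthesis in mitochondria. They were listed by symbol and matched to Ensembl identifiers, and 8 of the 9 listed genes were found among 23379 genes in all. SLC40A1 had no row and was not analysed here. No gene with a row was at 0 in all 3 libraries, and whether a missing row means no counted reads was not tested. RNA was sequenced from DU145, a human prostate carcinoma line, in 3 libraries with 1 library in each group. P-Enter was the negative control, WT cells overexpressed wild-type BRAF, and L597R cells had received a plasmid for the L597R form of this RAF kinase. The vector's promoter, the time after transfection, the number of clones and whether the plasmids were kept stably are not given in the sources used here. The genes were chosen by their place in iron and haem handling and selected on FPKM values of these libraries, FTL as the most abundant transcript and TMEM14C as low in WT, so their levels and differences are a description. No difference has a replicate check or a p-value.

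Cells take up transferrin-bound iron through the transferrin receptor and move it out of the endosome with a divalent metal transporter. Iron that is not used at once is stored in ferritin, a hollow shell of heavy and light chains, and is released again when NCOA4 carries ferritin to lysosomes. Haem is built by a chain of enzymes that starts and ends in mitochondria, and it is broken down by haem oxygenase. Iron-regulatory proteins bind a hairpin in several of these mRNAs, the iron-responsive element: in a 5' untranslated region it blocks translation, and in the 3' untranslated region of TFRC it protects the mRNA from decay. RNA levels therefore do not show the translational part of this control.

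The hairpins are shown because the background above ties the 5' position to translation and the 3' position in TFRC to mRNA stability. Neither kind of control was measured here. Transcripts of GENCODE 29 on GRCh38 were searched on their own strand for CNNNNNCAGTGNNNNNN, 17 bases in which the 5 bases on either side of the 6-base loop had to pair (A with T, G with C, or G with T). Among 19684 protein-coding genes, 36 (0.183%) held it in a 5' untranslated region and 132 (0.671%) in a 3' untranslated region. It was found in 4 of the 9 listed genes. The sequences below are 30 bases long, 5′ to 3′ on the transcript strand, with the loop in capitals.
FTL 5' element: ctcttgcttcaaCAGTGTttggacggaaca
FTH1 5' element: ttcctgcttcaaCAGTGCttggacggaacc
SLC40A1 5' element: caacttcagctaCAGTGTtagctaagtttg
TFRC 3' element A: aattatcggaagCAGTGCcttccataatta
TFRC 3' element B: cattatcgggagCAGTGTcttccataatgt
TFRC 3' element C: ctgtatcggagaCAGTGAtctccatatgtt
TFRC 3' element D: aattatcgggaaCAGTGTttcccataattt

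The FTL element lies at chr19:48965335-48965364 on the plus strand, the FTH1 element at chr11:61967573-61967602 on the minus strand and the SLC40A1 element at chr2:189580660-189580689 on the minus strand. The TFRC elements lie on the minus strand of chromosome 3, from A at chr3:196050978-196051007 to D at chr3:196050462-196050491, with B at chr3:196050574-196050603 and C at chr3:196050509-196050538. A match is a description of the letters. The pattern was not matched in NCOA4, SLC11A2, ALAS1, FECH or TMEM14C. This says only that no stretch with these letters and a fully paired stem lies in those annotated regions. A hairpin with an unpaired base in that stem would not be matched, so these genes are not shown to lack an element.

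Values are FPKM, reads divided by gene length and by counted reads of the library. They allow levels to be compared between genes. Whole reads were worked out from the FPKM, and the libraries held 13294004 (P-Enter), 15665132 (WT) and 16603676 (L597R) counted reads. A read ratio is the ratio of reads per counted read between libraries, given with its exact (Clopper-Pearson) 95% interval. The interval covers counting error alone, and reads copied by the polymerase chain reaction are not independent molecules, so an interval away from 1 separates these libraries and says nothing about the spread between cultures. A gene passed the size rule when log2(FPKM + 1) differed by at least 1 and its mean over the libraries was at least 1 FPKM, a scale that understates the change of low genes. All 8 genes reached that mean, as did 10639 genes in all.

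FTL, the ferritin light chain, was the most abundant transcript per length in each library. P-Enter held 6003 FPKM, WT 6329 and L597R 7065, from 69509, 86349 and 102172 reads. L597R was the highest library and P-Enter the lowest. Read ratios were 1.05 (1.04 to 1.06) for WT to P-Enter, 1.18 (1.17 to 1.19) for L597R to P-Enter and 1.12 (1.11 to 1.13) for L597R to WT. FTL made up 0.523% of counted reads in P-Enter (exact interval 0.519 to 0.527), 0.551% in WT (0.548 to 0.555) and 0.615% in L597R (0.612 to 0.619). The next gene by FPKM was MT-CO1, the mitochondrially encoded oxidase subunit, in each library. FTL stood 1.48 times above it in P-Enter, 1.56 times in WT and 1.93 times in L597R. That last ratio joins a higher FTL to a lower MT-CO1, which was at 4057 (P-Enter), 4058 (WT) and 3665 FPKM (L597R). On GRCh38, FTL (ENSG00000087086) spans 48965301 to 48966878 of chromosome 19 (plus strand).

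FTH1, the heavy chain that oxidises iron for storage, followed the same order at a far lower level. It was at 109 (P-Enter), 123 (WT) and 131 FPKM (L597R), from 2914, 3864 and 4372 reads. Read ratios were 1.13 (1.07 to 1.18) for WT to P-Enter, 1.20 (1.15 to 1.26) for L597R to P-Enter and 1.07 (1.02 to 1.12) for L597R to WT. The light chain exceeded the heavy chain 54.9-fold in P-Enter, 51.4-fold in WT and 53.8-fold in L597R on the FPKM scale. The quotient of the chains thus differed less between libraries than either chain did between P-Enter and L597R. On GRCh38, FTH1 (ENSG00000167996) spans 61959718 to 61967660 of chromosome 11 (minus strand). BEST1 overlaps it on the opposite strand and had no row.

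Both ferritin genes have processed pseudogenes, near-identical copies inserted elsewhere in the genome, and reads that fit several copies equally may have been lost or misplaced in the counting. The annotation names 25 FTH1 pseudogenes, of which 9 had a row, and 16 FTL pseudogenes, of which 3 had a row. The listed FTH1 pseudogenes held 94 (P-Enter), 120 (WT) and 143 reads (L597R). The listed FTL pseudogenes held 21, 29 and 35 in that order. The highest were FTH1P7 (6.68, 7.86 and 6.55 FPKM in P-Enter, WT and L597R), FTH1P8 (2.78, 3.10 and 4.57) and FTLP3 (2.14, 3.02 and 3.99). These counts are small beside those of the parent genes, but reads left out of the counting altogether are not seen in them. The absolute level of FTH1, and with it the quotient of the chains, is therefore uncertain, and the part of the copies in it was not tested. PCBP1, an iron chaperone that loads ferritin, was at 1.70, 1.15 and 2.09 FPKM from 39, 31 and 60 reads, while its relative PCBP2 was at 16.8, 15.1 and 14.5. These were picked out after their values were seen.

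**Figure D1:**
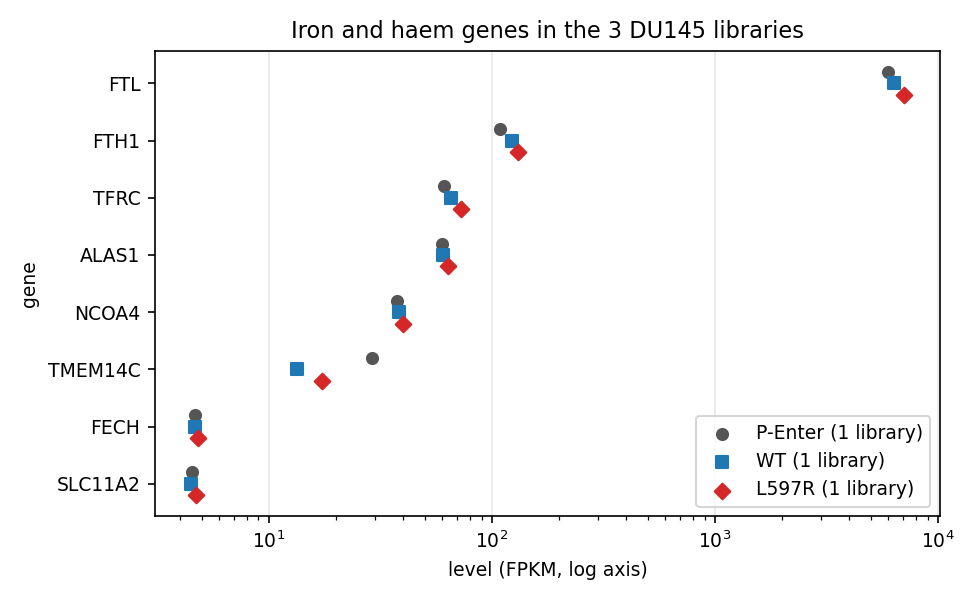
Level of each gene (rows) in FPKM on a log axis in the 3 libraries, 1 point per library and no error bar since each group had 1 library. FTL sits near 6003 to 7065, more than an order of magnitude above FTH1, and TMEM14C shows the widest gap between libraries.

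TFRC, the transferrin receptor and the main importer of iron in dividing cells, was highest in L597R. It was at 61.4 (P-Enter), 65.8 (WT) and 72.8 FPKM (L597R), from 6362, 8039 and 9426 reads. Read ratios were 1.07 (1.04 to 1.11) for WT to P-Enter, 1.19 (1.15 to 1.22) for L597R to P-Enter and 1.11 (1.07 to 1.14) for L597R to WT. In L597R against P-Enter, TFRC and both ferritin chains therefore stood higher side by side, by 0.24 (TFRC), 0.23 (FTL) and 0.26 (FTH1) in log2(FPKM + 1). On GRCh38, TFRC (ENSG00000072274) spans 196027183 to 196082189 of chromosome 3 (minus strand). Annotated genes on the opposite strand within it, AC024937.1 and RNU7-18P, had at most 4 reads in any library.

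SLC11A2, the divalent metal transporter DMT1, was low and nearly level. P-Enter held 4.53 FPKM, WT 4.47 and L597R 4.70, from 596, 692 and 772 reads. The interval held 1 in each comparison, with ratios of 0.985 (0.882 to 1.10) for WT to P-Enter, 1.04 (0.931 to 1.16) for L597R to P-Enter and 1.05 (0.949 to 1.17) for L597R to WT. A difference between these libraries was not detectable at this depth. On GRCh38, SLC11A2 (ENSG00000110911) spans 50979401 to 51028566 of chromosome 12.

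NCOA4, which delivers ferritin to autophagosomes, was at 37.7 (P-Enter), 38.2 (WT) and 39.8 FPKM (L597R), from 2000, 2389 and 2638 reads. Relative to P-Enter, its read ratio was 1.01 (0.955 to 1.08) in WT and 1.06 (0.996 to 1.12) in L597R. Since both intervals held 1, the libraries could not be separated on this gene. On GRCh38, NCOA4 (ENSG00000266412) spans 46005088 to 46030714 of chromosome 10.

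ALAS1, the first and rate-limiting enzyme of haem synthesis outside red cells, was among the more abundant genes of the group. It was at 59.7 (P-Enter), 60.3 (WT) and 63.6 FPKM (L597R), from 2014, 2397 and 2676 reads. The interval lay just above 1 in L597R against P-Enter (1.06, 1.004 to 1.13) and held 1 in WT against P-Enter (1.01, 0.952 to 1.07). The red-cell isoenzyme ALAS2, whose mRNA also carries a 5' element, had 0 reads in both P-Enter and WT and 1 in L597R. On GRCh38, ALAS1 (ENSG00000023330) spans 52198086 to 52214327 of chromosome 3.

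FECH, the ferrochelatase that inserts iron into protoporphyrin as the last step, was at 4.66 (P-Enter), 4.68 (WT) and 4.82 FPKM (L597R). These values came from 689, 816 and 891 reads. Relative to P-Enter, read ratios were 1.005 (0.907 to 1.11) in WT and 1.04 (0.936 to 1.15) in L597R, and the libraries were not separable. The FPKM of FECH corresponded to a length of 11128 bp, against 4473 bp of annotated exons in GENCODE 29, so its level beside other genes depends on the gene model, while its differences between libraries do not. On GRCh38, FECH (ENSG00000066926) spans 57548283 to 57586772 of chromosome 18.

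TMEM14C, an inner mitochondrial membrane protein needed to bring the haem precursor protoporphyrinogen into the matrix, differed most between libraries. It was at 28.9 (P-Enter), 13.4 (WT) and 17.3 FPKM (L597R), from 508, 277 and 380 reads. P-Enter was highest, WT lowest and L597R in between. Read ratios were 0.463 (0.398 to 0.537) for WT to P-Enter, 0.599 (0.523 to 0.685) for L597R to P-Enter and 1.29 (1.11 to 1.52) for L597R to WT. It was the only one of the 8 genes past the size rule in any comparison, in WT against P-Enter, where 0.978% of all 10639 genes passed (0.376% higher and 0.602% lower). In L597R against P-Enter none of the 8 passed (background 0.808%, with 0.301% higher and 0.508% lower), and none in L597R against WT (0.724%, with 0.348% higher and 0.376% lower). The gene was chosen for being low in WT, so nothing is read from that count. Just inside the rule stood TMEM14C at -1.06 in WT against P-Enter, and the nearest value outside it was its own -0.71 in L597R against P-Enter.

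Among 9358 protein-coding genes, 7 lay lower than TMEM14C in WT against P-Enter and 24 in L597R against P-Enter. In L597R against WT only 2.22% of them lay higher. On GRCh38, TMEM14C (ENSG00000111843) spans 10722915 to 10731129 of chromosome 6 (plus strand), and no other annotated gene overlaps it. The nearest protein-coding genes with a mean of at least 1 FPKM, and the paralogs, lay closer to P-Enter. PAK1IP1, a nucleolar protein 13133 bp away, was at 30.9 (P-Enter), 27.5 (WT) and 32.3 FPKM (L597R). TMEM14B, a paralog of TMEM14C that lies 16630 bp away on the other side, was at 12.5, 12.0 and 11.6 FPKM in that order. The third family member TMEM14A was at 47.5, 40.1 and 49.6 FPKM. Their read ratios for WT against P-Enter were 0.889 (0.796 to 0.994) for PAK1IP1, 0.957 (0.869 to 1.05) for TMEM14B and 0.843 (0.753 to 0.944) for TMEM14A. Since TMEM14C was chosen for its low value in WT, its distance from these genes is a description. Whether fewer TMEM14C transcripts were present or fewer of its reads were aligned and counted cannot be told apart from these values.

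By the rule for likeness, the genes nearest to TMEM14C in pattern were HRAS, MTCH2, DDX24, FRG1 and RRN3. Likeness was the Euclidean distance between log2(FPKM + 1) values centred over the 3 libraries, among 6164 other protein-coding genes with a mean of at least 5 FPKM. The distances ran from 0.169 for HRAS to 0.358 for RRN3, and 0 genes lay within 0.1. HRAS, a small GTPase of the RAS family, was at 16.0 (P-Enter), 7.94 (WT) and 11.3 FPKM (L597R). MTCH2, a protein of the mitochondrial outer membrane, was at 46.7, 24.2 and 24.6 FPKM. DDX24, an RNA helicase, was at 6.99, 3.84 and 5.42 FPKM. Each of the 5 was highest in P-Enter and lowest in WT. For the other genes of the group the pattern was common: 1138 genes lay within 0.1 of FTL, 1140 of TFRC, 895 of FTH1, 1713 of ALAS1, 1791 of NCOA4, 1980 of SLC11A2 and 2099 of FECH.

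**Figure D2:**
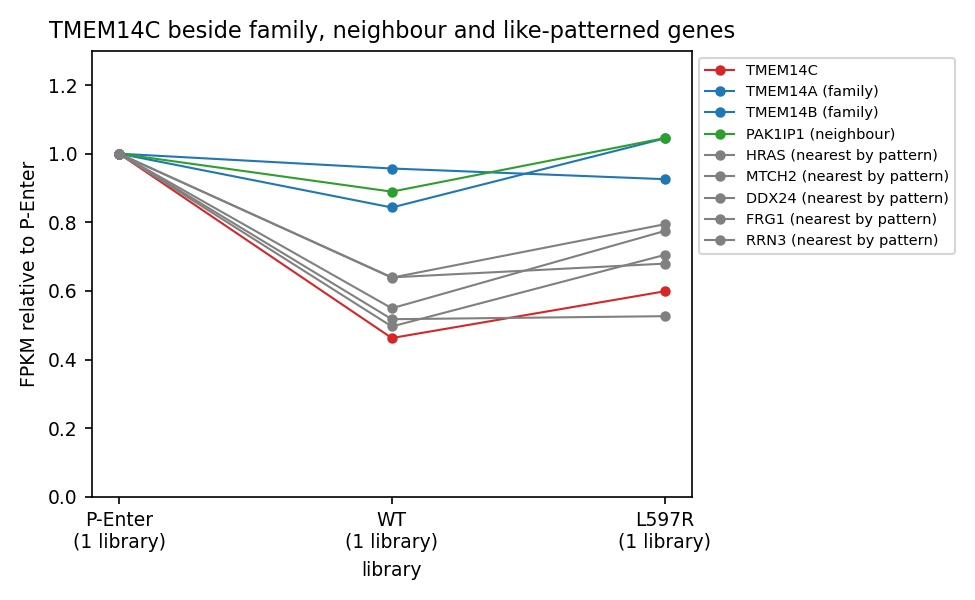
FPKM relative to P-Enter (y axis) in the 3 libraries (x axis) for TMEM14C, the family members TMEM14A and TMEM14B, the neighbour PAK1IP1 and the 5 genes nearest in pattern; lines join 1 library per group and there are no error bars. TMEM14C has the lowest point of all curves in WT, while the family members and the neighbour lie nearer to 1.

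Read together against P-Enter, the interval in WT lay above 1 for 3 of the 8 genes (FTL, FTH1 and TFRC), where 14.0% of 10531 genes with reads and a mean of at least 1 FPKM did so, and below 1 for 1 (TMEM14C), against 12.1%. In L597R it lay above 1 for 4 (the same 3 and ALAS1), against 25.6%, and below 1 for 1, against 23.9%. In L597R against WT it lay above 1 for 4 (FTL, FTH1, TFRC and TMEM14C), against 22.1%, and below 1 for 0, against 16.3%. The abundant genes had the narrowest intervals, so these counts also follow depth. TMEM14C was chosen for its low value in WT, so nothing is read from its place in the counts that involve WT. The median difference in log2(FPKM + 1) over the 8 genes was 0.02 in WT against P-Enter, 0.08 in L597R against P-Enter and 0.08 in L597R against WT. Over all 10639 genes it was 0.00, -0.01 and 0.01. The comparisons share libraries, so they are not independent of each other. The FPKM of 6 of the 8 genes stood in the order P-Enter, WT, L597R from low to high, as did 28.9% of the 10531 genes, and for FECH, NCOA4 and ALAS1 both steps lay within counting error.

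**Figure D3:**
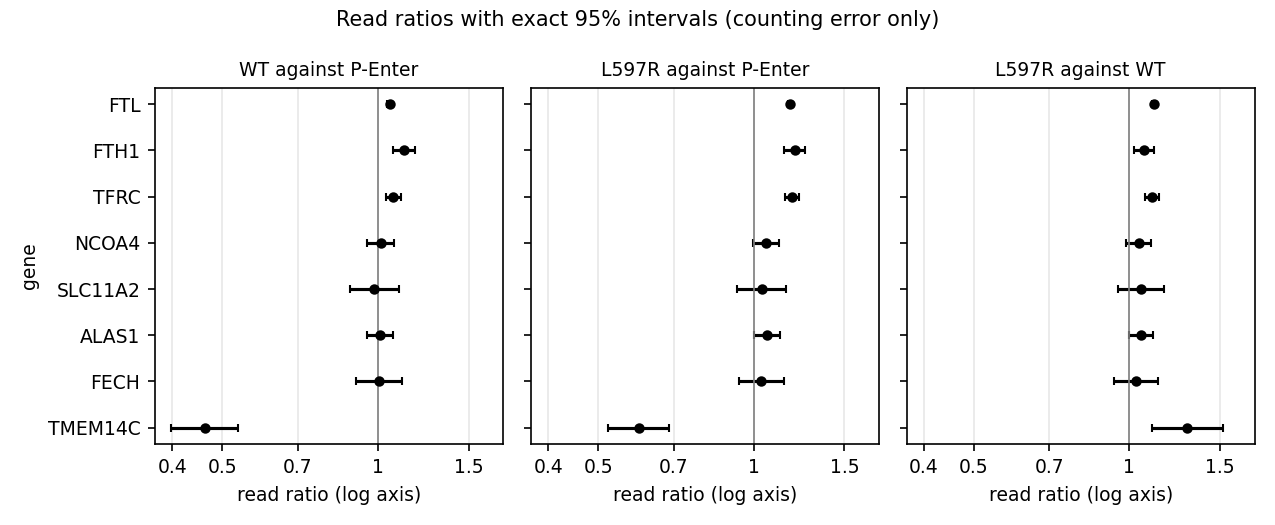
Read ratio on a log axis for each gene (rows) in the 3 comparisons (panels), with exact 95% intervals that cover counting error only. The TMEM14C intervals lie at 0.398 to 0.537 in WT and 0.523 to 0.685 in L597R against P-Enter, and those of SLC11A2, NCOA4 and FECH cross 1 in each panel.

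Differences between the libraries also followed base composition. Across 9358 protein-coding genes the difference in log2(FPKM + 1) was lower at higher GC content (Spearman -0.45 in WT and -0.69 in L597R, both against P-Enter; genes are not independent replicates). GC content was 56.3% in FTL, 51.9% in ALAS1, 50.6% in TMEM14C and 50.1% in FTH1, against 44.3% in FECH, 43.1% in NCOA4, 43.0% in SLC11A2 and 41.5% in TFRC. Regressing the differences on GC content, length and mean expression gave each gene a residual, the difference left after these terms. In L597R against P-Enter the residual of FTL was 0.35, above its raw difference of 0.23, and 1.66% of protein-coding genes had a higher one. FTH1 had 0.34 against a raw 0.26, with 1.88% of genes higher. ALAS1 had 0.18 against 0.09, with 10.5% of genes higher. TFRC, in contrast, kept 0.10 of its 0.24, with 23.4% of genes higher. The residual was below 0 for NCOA4 (-0.02), FECH (-0.03) and SLC11A2 (-0.07), whose raw differences were above 0. TMEM14C stayed low at -0.66 against a raw -0.71. FTL lies at the end of the expression range, and without the expression term its residual was 0.36.

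In WT against P-Enter the residual was 0.07 for FTL, 0.21 for FTH1, 0.04 for TFRC, 0.06 for ALAS1 and -1.02 for TMEM14C. Without the expression term that of FTL was 0.14, so its WT value depends on this choice. Of the 8 genes FTH1 stood furthest above the trend, with 4.05% of genes higher, and TMEM14C furthest below. The part of base composition in these differences was not tested beyond this.

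**Figure D4:**
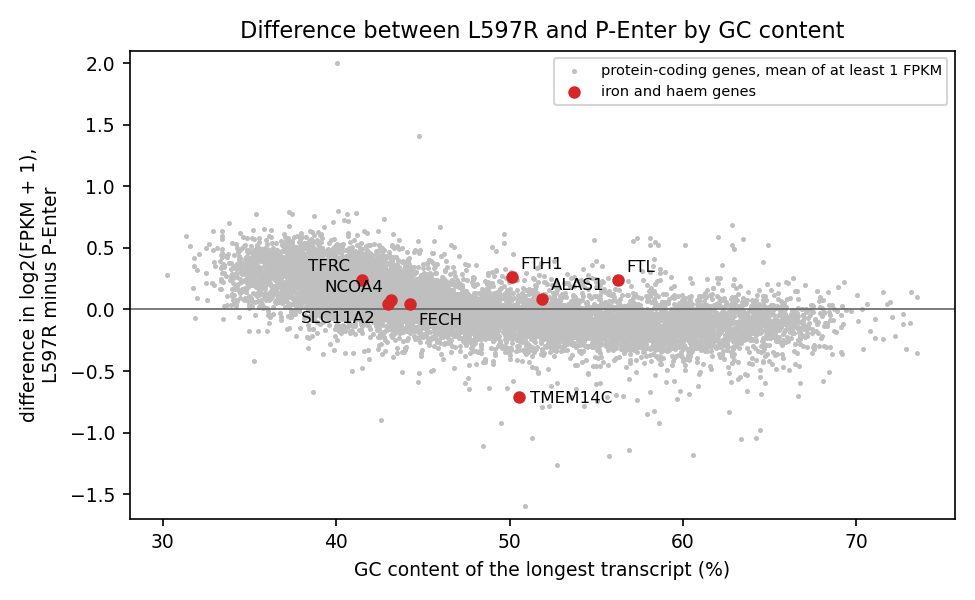
Difference in log2(FPKM + 1), L597R minus P-Enter (y axis), against GC content of the longest transcript in percent (x axis); grey points are 9358 protein-coding genes and red points the 8 iron and haem genes. FTL, FTH1 and ALAS1 lie towards the upper edge of the cloud at their GC content, TFRC, NCOA4, SLC11A2 and FECH inside it, and TMEM14C at -0.71 below most of it.

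The wider pathway was read from 8 lists with 90 genes besides the 9 above, of which 81 had a row and 69 a mean of at least 1 FPKM. None of the 69 passed the size rule in any comparison. The interval lay above 1 for 11 and below 1 for 11 in WT against P-Enter, and above 1 for 20 and below 1 for 17 in L597R against P-Enter. These counts correspond to shares close to the backgrounds given above, and the median difference was 0.01 and 0.00. Levels and read ratios of single genes from these lists are given below without correction for base composition, which the differences followed.

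Among the 8 measured haem synthesis enzymes, 3 had an interval below 1 in L597R against P-Enter, where 23.9% of all genes did, and 1 (ALAS1) an interval above 1, against 25.6%. With 8 genes these counts are a description and set the list apart from no other. The list median in that comparison was -0.10, and -0.04 for the residuals. UROD, a decarboxylase of the chain, was at 25.1 (P-Enter), 24.1 (WT) and 22.4 FPKM (L597R), with a ratio in L597R against P-Enter of 0.891 (0.827 to 0.960), and PPOX, the oxidase before ferrochelatase, at 2.37, 2.05 and 1.47 (0.618, 0.480 to 0.793). UROD and PPOX stand outside the naming rule and were picked out after their values were seen. By difference alone, UROS, UROD, CPOX and PPOX lay below P-Enter in L597R, and ALAS1, ALAD and FECH above it.

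Of the 13 measured genes of haem and porphyrin transport, TMEM14C was the lowest in both comparisons with P-Enter. The highest in level was TMEM14A, given above. ABCB10, a mitochondrial transporter active in haem synthesis, was at 10.6 (P-Enter), 10.9 (WT) and 12.9 FPKM (L597R) (L597R against P-Enter 1.22, 1.10 to 1.35). Haem breakdown had members in both directions. HMOX1, the inducible haem oxygenase, was at 193 (P-Enter), 209 (WT) and 277 FPKM (L597R), with a read ratio in WT of 1.09 (1.05 to 1.12) against P-Enter and of 1.44 (1.40 to 1.49) in L597R against P-Enter. BLVRA, a biliverdin reductase, was at 10.8, 9.39 and 9.62 FPKM (L597R against P-Enter 0.893, 0.753 to 1.06). Outside the naming rule, the constitutive oxygenase HMOX2 was at 5.37, 3.80 and 3.60 FPKM (0.671, 0.554 to 0.812) and BACH1, the haem-binding repressor of HMOX1 and the ferritin genes, at 3.43, 4.60 and 5.56 (1.62, 1.42 to 1.85). Both were picked out after their values were seen.

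In iron uptake 8 of 9 measured genes lay above P-Enter in L597R, as did 5164 of all 10639 genes. The interval lay above 1 for 5 of the 9, against 25.6% of all genes, and the list median was 0.09. For the residuals the median was also 0.09, with 6 positive and 3 negative. Among protein-coding genes 4643 of 9358 residuals were positive. TFRC was the most abundant. STEAP3, the endosomal iron reductase, had the lowest difference among genes with a mean of at least 5 FPKM, at 23.4, 23.8 and 24.1 FPKM (L597R against P-Enter 1.03, 0.959 to 1.10). STEAP1, of the STEAP family of metal reductases, was at 4.68 (P-Enter), 5.50 (WT) and 7.06 FPKM (L597R) (L597R against P-Enter 1.51, 1.17 to 1.95) from 96, 133 and 181 reads. In the storage list 5 of 8 measured genes lay above P-Enter in L597R. The interval was above 1 in 3 of the 8, against 25.6% of all genes, and below 1 in another 3, against 23.9%. The list median was 0.14, and 0.07 for the residuals, of which 4 were positive and 4 negative. PCBP4, of the family of the iron chaperones, was the lowest of the genes with a mean of at least 5 FPKM, at 15.0, 12.7 and 11.8 FPKM (0.788, 0.710 to 0.873). For iron export, CP, the copper oxidase ceruloplasmin, had 2, 0 and 2 reads and the other listed genes were not analysed here.

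Among the sensors of iron and oxygen, HIF1A, the oxygen-regulated transcription factor, was at 26.7 (P-Enter), 31.7 (WT) and 38.1 FPKM (L597R) (L597R against P-Enter 1.43, 1.35 to 1.51). The iron-regulatory proteins that bind the hairpins are encoded by ACO1 and IREB2, named here for that role. ACO1 was at 18.0, 18.8 and 18.1 FPKM (1.01, 0.947 to 1.07), and IREB2 at 4.91, 5.42 and 6.52 (1.33, 1.21 to 1.46). The interval of IREB2 thus left out 1 in L597R against P-Enter and that of ACO1 did not. Of the 26 measured genes of iron-sulphur cluster assembly, the interval in L597R against P-Enter lay above 1 for 7, against 25.6% of all genes. It lay below 1 for 8, against 23.9%, and the list median was -0.02. The most abundant was the mitochondrial chaperone HSPA9 at 111, 110 and 120 FPKM (1.08, 1.06 to 1.11). FDX1, an electron donor, was at 6.58, 7.92 and 8.01 FPKM (1.22, 1.04 to 1.42) and the assembly protein ISCA2 at 5.97, 4.83 and 4.44 (0.744, 0.617 to 0.896).

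**Figure D5:**
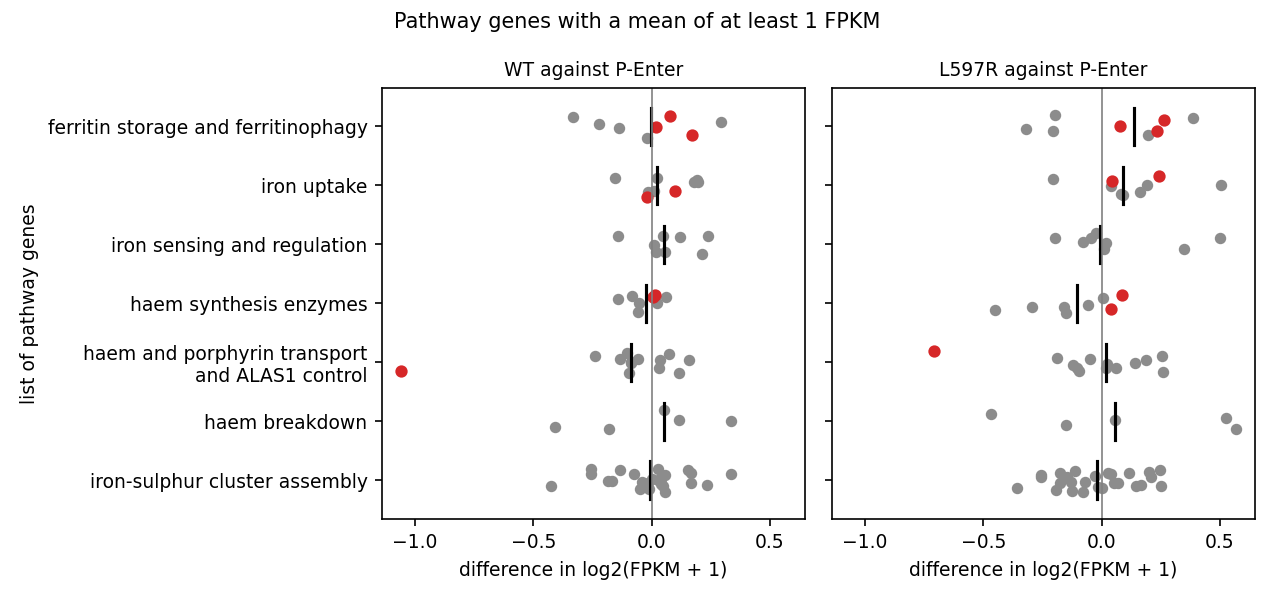
Difference in log2(FPKM + 1) (x axis) for the genes of each pathway list (rows) in WT and L597R against P-Enter (panels); each point is a gene with a mean of at least 1 FPKM, red points are the genes described above, black bars are list medians, and the vertical position within a row is arbitrary. In L597R the list medians run from -0.10 for the haem synthesis enzymes to 0.14 for ferritin storage, and TMEM14C stands apart at -1.06 and -0.71. The medians of the residuals for these 2 lists, not drawn, were -0.04 and 0.07.

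The labelled cell type was checked against fixed markers. Of 6 epithelial markers, KRT18 was at 34.3, 36.6 and 37.6 FPKM in P-Enter, WT and L597R, KRT8 was at 0.623, 0.584 and 0.534, CDH1 had 1 read in P-Enter and 0 elsewhere, and KRT5 and EPCAM had no row. Of 6 prostate luminal markers 1 had a row, and KLK3 was among those without. Of 10 erythroid markers the haemoglobin genes had no row, and the 2 listed, EPOR and ALAS2, summed to 3.35, 3.49 and 3.55 FPKM. Of 7 macrophage markers the 5 listed summed to 0.234, 0.0179 and 0.110 FPKM. A missing row is no measured level. The part of other cell types in the iron genes was not tested. BRAF, the gene overexpressed, was at 1.65, 4.41 and 9.59 FPKM in P-Enter, WT and L597R. Differences between L597R and WT thus join the form of BRAF to its RNA level, and their separate parts were not tested.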

How the data were processed

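RNA was sequenced from 3 DU145 libraries, 1 per group, made with Trizol and a stranded mRNA kit, per the labels' protocols. The values deposited by the authors are FPKM for Ensembl gene identifiers, per the file headers. The submitters' processing notes name HTSeq, Cufflinks, HISAT2 and Trimmomatic, and the build GRCh38 (hg38). Versions, annotation release and strand setting are not given in the sources used here, so reads of near-identical copies and antisense genes are uncertain.

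Symbols came from a gene name table (23330 matched) and positions, exon lengths, GC content and transcript sequences from GENCODE 29 (22807 matched). The commonest value of 1 read at the annotated length gave the library totals, and a gene length giving whole reads in all 3 libraries (tolerance 1e-05) was found for 22434 genes (96.0%). No count model was used. On simulated counts, reads came back exactly for 98.5% of 2000 genes in L597R against P-Enter, and the size rule found 85.9% of 99 genes changed 3-fold and 0% of 99 changed 1.6-fold, calling 47 of 10430 unchanged genes. For WT against P-Enter it found 89% of 100 genes changed 3-fold. The 0% for 1.6-fold changes was largely fixed by the rule, since such a change lies below its threshold. The simulated counts held counting error alone, so these rates leave out the spread between cultures and copied reads. Simulated lengths also stayed closer to the annotated ones than some real lengths, such as that of FECH. The rates may therefore not carry over to the deposited libraries.

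The members and lists were chosen with earlier results of these data known. Genes were named by rule: the 9 listed genes, and from each list any gene past the size rule, the most abundant gene, and the highest and lowest difference in L597R against P-Enter among genes averaging 5 FPKM or more; the 3 highest ferritin pseudogenes, the neighbours of TMEM14C and the 5 genes nearest to it in pattern; exceptions are marked, and some genes the rule names are not reported here. Alternatives were pseudocounts, filters, thresholds, rescaling, regression and recovered reads. Software was scipy 1.17.1, pandas 2.3.3, matplotlib 3.10.9, numpy 2.4.6 and Python 3.11.15.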

Additional observations from a re-analysis of the deposited data

How the results depend on the processing

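TMEM14C remained past the size rule in WT against P-Enter under every alternative run except a pseudocount of 5, which left 0 of the 8 genes past it. A 1.5-fold threshold put 1 of the 8, TMEM14C, past it in L597R against P-Enter. Of 144 recomputed differences of single genes, 15 changed sign, all under the regressions and all of FECH, NCOA4 or SLC11A2, none of which had passed the rule. The regression without the expression term was added after the data were seen. Counts over all genes depended on the setting, given here for WT against P-Enter, L597R against P-Enter and L597R against WT in that order, beside 104, 86 and 77: 191, 203 and 189 with a pseudocount of 0.1; 2, 7 and 3 with a pseudocount of 5; 267, 246 and 214 without a filter; 9, 13 and 8 for genes averaging 5 FPKM or more; 761, 742 and 677 after rescaling to TPM, where the same filter and pseudocount admit lower genes; 10, 8 and 7 after the regression, run on protein-coding genes; 34, 52 and 38 where the interval of recovered reads lay beyond 1.5-fold; 233, 322 and 237 at 1.5-fold; and 11, 11 and 7 among protein-coding genes. Rescaling by the median ratio left them at 104, 84 and 77. No paired analysis was possible because each group had 1 library and the labels carry no replicate numbers, and no replicate could be left out. The intervals of SLC11A2, FECH and NCOA4 held 1 in each comparison; whether more reads would separate the libraries was not tested.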
